A study of Solanum lycopersicum with 12 samples.

Results

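The genes described here are 101 of the 34075 gene IDs in the table, 101 of the 18006 whose mean level in mock seedlings was at least 2 CPM (counts per 1000000). They were chosen by measured values: mean mock level of at least 2 CPM, mean level after abscisic acid (ABA) below 1 CPM, a mock over ABA ratio of at least 4 with 0.05 CPM added to both, and the highest ABA library below the lowest mock library. CPM is the count scaled by the total of its library. The fall under ABA is therefore the choice itself and is described without a test. The libraries of the third treatment, iSB09, took no part in it. The working name of the set, genes nearly shut off by ABA, holds for some members only: ABA seedlings kept at most 5% of the mock level in 13 members and at most 10% in 36, while 15 members kept more than 20%. Under ABA, edgeR and DESeq2 called all 101 lower than mock and limma voom 100, against 9.90%, 10.7% and 9.69% of all genes tested, counts that the choice fixes.

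The study treated whole wild-type (WT) tomato seedlings, Solanum lycopersicum, with 20 µM iSB09, 10 µM ABA, 10 µM iCB or a mock medium with 0.1% DMSO, and took RNA 3 h later. The seedlings had been moved from plates at 3 days after germination and kept in liquid medium at 22 °C and a 16 h day for a further 8 days. Each group had 3 samples, which the design text calls independent biological replicates; no columns of the table could be matched to iCB by name, so iCB is not analysed here. DMSO was recorded for the mock medium only, so solvent and treatment cannot be told apart, and iSB09 and ABA were given at different doses. Shoot and root were harvested together, and in such bulk samples fewer cells of a type and less RNA per cell cannot be told apart.

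ABA is the plant hormone of drought and seed dormancy. It binds receptors of the PYR/PYL family, which then inhibit clade A PP2C phosphatases; this frees SnRK2 kinases, whose targets include the bZIP factors that switch on protective genes. ABA also restrains growth and lowers many transcripts, and how fast a transcript can disappear depends on both its synthesis and its decay. iSB09 is a synthetic agonist of ABA receptors. The files and the reference pair none of the table's IDs with a name, a function, a length or a sequence, so members are given by ID, without roles, and the pathway lists meant for them could not be applied. Without lengths, CPM compares 1 gene between libraries but does not rank genes by transcript number.

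The members were modestly expressed in mock seedlings, and the limit of 1 CPM in ABA favours such genes. Their mean levels had a median of 1.5 CPM in iSB09, 0.486 CPM in ABA and 3.82 CPM in mock seedlings. The median mock level was 20.6 CPM in genes that met the same mock, ratio and separation conditions but kept 1 CPM or more in ABA. In mock, 34 members had means of 2 to under 3 CPM, 34 had 3 to under 5 CPM, 25 had 5 to under 10 CPM and 8 had 10 CPM or more. The mock over ABA ratio ran from 4.05 to 91.2 with a median of 7.30. It was under 5 in 23 members, 5 to under 10 in 50, 10 to under 20 in 20 and at least 20 in 8.

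Summed over the 101 members, the level was 267.6, 147.4 and 168.9 CPM in iSB09 replicates 1 to 3, 54.8, 49.6 and 56.2 CPM in ABA replicates 1 to 3, and 559.6, 539.3 and 491.3 CPM in mock replicates 1 to 3. The 3 groups did not overlap, but the choice of members fixed this for ABA and mock. The sum averaged 194.6 ± 64.1 CPM in iSB09, 53.5 ± 3.5 CPM in ABA and 530.1 ± 35.1 CPM in mock (SD, n = 3 each), so that iSB09 seedlings held 36.7% and ABA seedlings 10.1% of the mock sum.

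**Figure D1:**
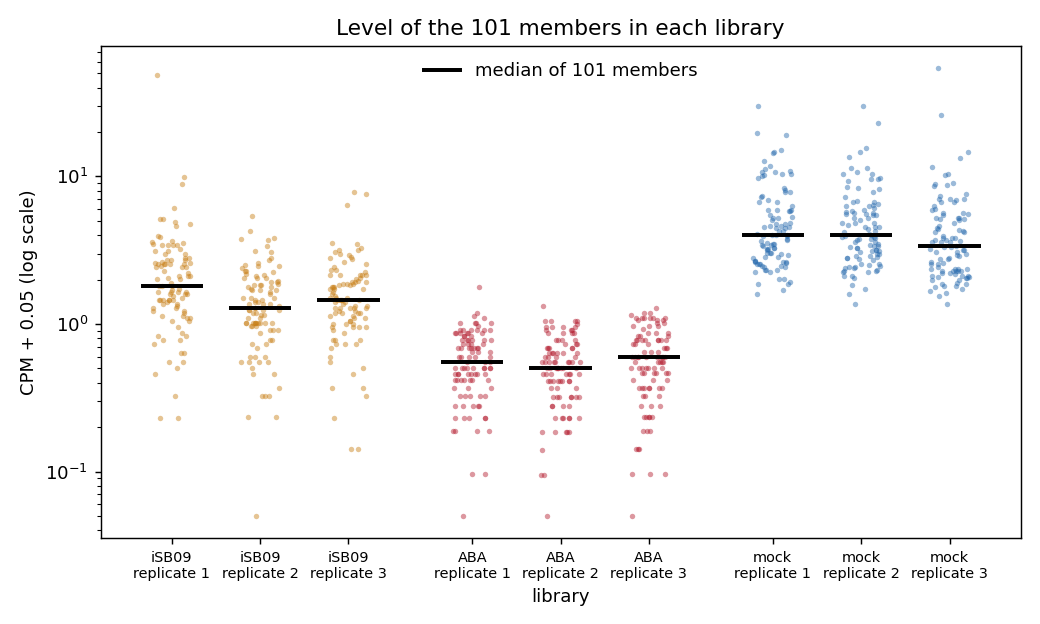
Level of each of the 101 members in each library, as CPM + 0.05 on a log scale; dots are members and black bars are medians. The medians are 1.77, 1.23 and 1.41 CPM in the iSB09 libraries, 0.502, 0.454 and 0.549 CPM in the ABA libraries and 3.96, 3.93 and 3.35 CPM in the mock libraries, before the 0.05 CPM is added.

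Depth sets how finely the low levels can be read. The 9 libraries held 21863058 to 22098966 counts, so that 1 CPM was about 22 reads, and a member at the median had 33 reads per library in iSB09, 10.7 in ABA and 84 in mock. In ABA, the median coefficient of variation among the 3 libraries was 29.6%, against 30.6% for counting error alone. In iSB09 it was 31.6%, against 17.4% for counting error, and in mock 20.8%, against 10.9%. The spread of the ABA values was thus of the size of counting error, while iSB09 and mock libraries varied more than that. No member had 0 reads in all 3 ABA libraries, and 2 had 0 in at least 1. All 101 members passed the filter on low counts and were tested.

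The 8 members with the highest mock means were those with most reads in mock. They are picked for high values in the mock libraries, so their tests of iSB09 against mock share that choice. The ABA libraries took part in the rule as low values, so their tests against ABA share it too. Solyc05g053610.2 had 8.82, 1.78 and 7.84 CPM in iSB09, 0.775, 0.681 and 1.05 CPM in ABA and 29.9, 23.1 and 54.0 CPM in mock. All 3 groups stood apart, with mock replicate 3 highest and iSB09 replicate 2 the lowest of its group. By the quasi-likelihood test of edgeR, with Benjamini-Hochberg adjustment over all genes as in every test below, its log2 fold change was -2.54 ± 0.43 for iSB09 over mock (SE; adjusted p = 0.0061) and 2.82 ± 0.57 for iSB09 over ABA (adjusted p = 0.015). The second call ended without iSB09 replicate 1 (adjusted p = 0.053), without ABA replicate 1 or 2 (0.07 and 0.074) and with limma voom (0.13).

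Solyc03g111880.3 had 4.55, 3.01 and 2.51 CPM in iSB09, 0.182, 0.998 and 0.823 CPM in ABA and 19.6, 15.6 and 11.6 CPM in mock. Its groups did not overlap, and iSB09 was lower than mock (log2 fold change -2.22 ± 0.34, adjusted p = 0.0032) and higher than ABA (2.29 ± 0.44, adjusted p = 0.011). Solyc03g025350.3, with 4.73, 2.42 and 3.42 CPM in iSB09, 0.593, 0.545 and 0.183 CPM in ABA and 19.1, 13.5 and 13.3 CPM in mock, had the same order. Its log2 fold changes were -2.12 ± 0.26 for iSB09 over mock (adjusted p = 0.00079) and 2.95 ± 0.36 for iSB09 over ABA (adjusted p = 0.00081).

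Solyc06g069640.3 had 5.09, 3.79 and 3.01 CPM in iSB09, 0.730, 0.454 and 0.778 CPM in ABA and 15, 11.4 and 7.33 CPM in mock. It too had 3 separate groups, with iSB09 below mock (log2 fold change -1.51 ± 0.28, adjusted p = 0.011) and above ABA (2.56 ± 0.36, adjusted p = 0.0019). In Solyc01g108320.3 the values were 6.10, 4.24 and 3.51 CPM in iSB09, 0.958, 0.681 and 1.05 CPM in ABA and 10.9, 10.7 and 8.51 CPM in mock. Its fall in iSB09 against mock, -1.12 ± 0.22 on the log2 scale (adjusted p = 0.013), lost its call without mock replicate 2 (adjusted p = 0.061), while iSB09 over ABA was 2.33 ± 0.27 (adjusted p = 0.00052).

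Solyc09g098620.2 stayed closest to mock among those with 3 separate groups in this set of 8. It had 9.83, 5.38 and 6.33 CPM in iSB09, 0.502, 0.998 and 1.05 CPM in ABA and 11.8, 14.5 and 14.5 CPM in mock. iSB09 was above ABA (log2 fold change 3.03 ± 0.29, adjusted p = 0.00021). Its difference from mock was -0.92 ± 0.23 (adjusted p = 0.044), a call that did not hold in 9 of 15 alternative fits (adjusted p = 0.052 to 0.16). These were the fits without mock replicate 1, 2 or 3 (0.058, 0.16 and 0.087), iSB09 replicate 2 or 3 (0.12 and 0.16) or ABA replicate 2 or 3 (0.064 and 0.058), that with only the 6 libraries compared (0.052) and 1 with a term for the replicate number.

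Solyc08g079930.2 in iSB09 lay closer to ABA than to mock instead. Its values were 2.05, 0.867 and 0.820 CPM in iSB09, 0.639, 0.635 and 0.412 CPM in ABA and 14.6, 9.50 and 10.3 CPM in mock. The iSB09 libraries were all above the ABA libraries, but the difference did not pass (log2 fold change 1.11 ± 0.40, adjusted p = 0.17), while iSB09 over mock was -3.20 ± 0.32 (adjusted p = 0.00022).

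Solyc03g093390.4 had the least even response. It had 48.9, 1.83 and 7.56 CPM in iSB09, 0.365, 0.182 and 0.640 CPM in ABA and 14.4, 30.1 and 25.9 CPM in mock. The first iSB09 library was above every mock library and the other two below every one. The log2 fold change for iSB09 over mock was -0.30 ± 0.77 (adjusted p = 0.86); without iSB09 replicate 1 it was -2.33 (adjusted p = 0.025), and without replicate 2 or 3 it was 0.24 or 0.09. iSB09 over ABA was 5.55 ± 1.18 (adjusted p = 0.019), but 3.51 without iSB09 replicate 1 (adjusted p = 0.017). The call ended without ABA replicate 1, 2 or 3 (adjusted p = 0.087, 0.092 and 0.063) and with limma voom (0.27).

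**Figure D2:**
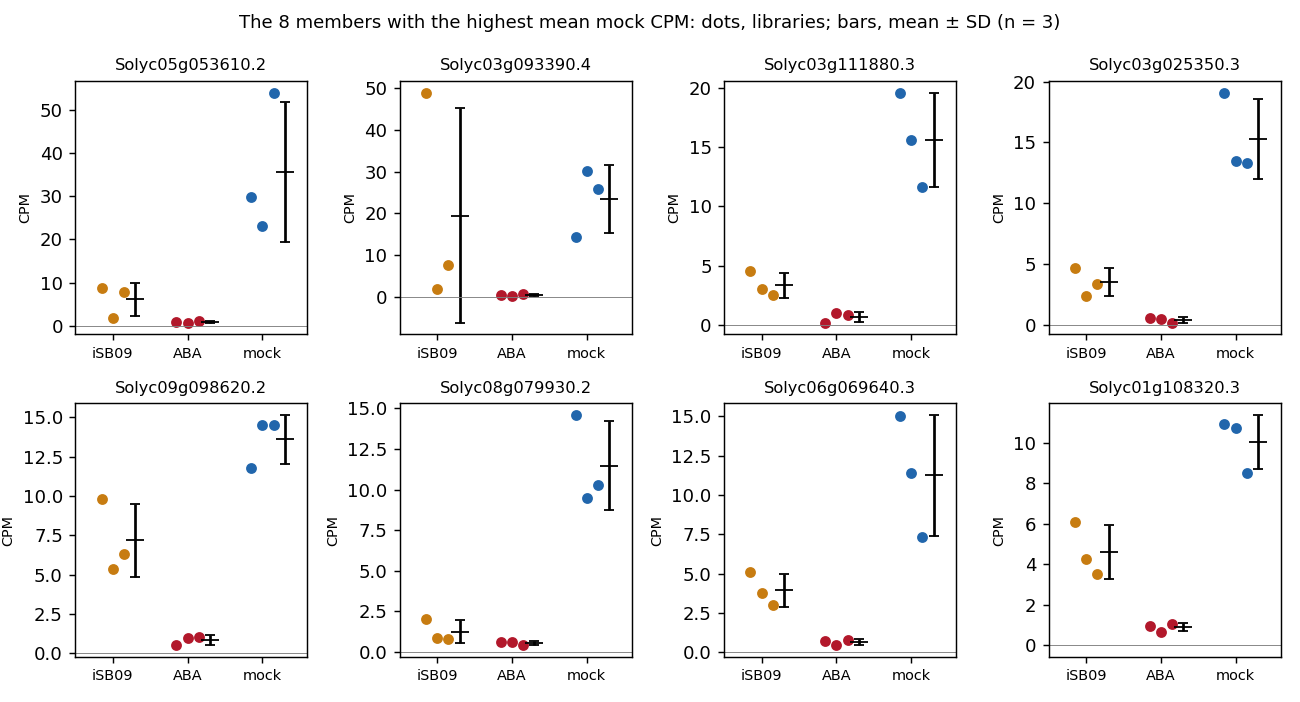
CPM of the 8 members with the highest mock means in iSB09, ABA and mock libraries; dots are the 3 libraries of a group, bars the mean ± SD (n = 3). ABA values lie at or below 1.05 CPM in every panel, and Solyc03g093390.4 shows the single iSB09 library at 48.9 CPM.

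The comparison of iSB09 with mock asks whether a receptor agonist lowered the same genes. All 101 members had a lower mean in iSB09 than in mock, and 61 fell in the test, against 2.48% of all 21424 genes tested. None rose, against 2.63% of all genes. Without adjustment, at p under 0.05, the count was again 0 (9.62% of all genes), as it was by DESeq2 (3.90%) and by limma voom (2.44%). DESeq2 called 72 members lower (3.56% of all genes) and limma voom 63 (2.51%). In 86 members all iSB09 libraries lay below all mock libraries, against 10.7% of all genes. The median log2 fold change was -1.40 over members and 0.00 over all genes. Because members were chosen for a high level in these same mock libraries, the comparison shares that choice. The count was 39 without mock replicate 2.

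Setting iSB09 against ABA asks how far apart the treatments left these genes. The mean was higher in iSB09 than in ABA in 99 of 101 members, and 62 were higher in the test, against 1.76% of all genes. None was lower, against 4.10% of all genes; the count was 0 too at an unadjusted p of 0.05 (9.62% of all genes), by DESeq2 (5.12%) and by limma voom (4.27%). In 81 members all iSB09 libraries lay above all ABA libraries, against 10.8% of all genes. DESeq2 called 71 members higher (2.49% of all genes) and limma voom 49 (1.54%). The median log2 fold change was 1.54 over members and 0.01 over all genes. The ABA libraries took part in the choice, as low values, and the doses differed. With ABA means held under 1 CPM by the choice, little room was left for a lower level in iSB09. The counts of 0 members lower than ABA are therefore no finding about the members. Without ABA replicate 1 or 2 the count was 36 or 38.

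Read together, iSB09 held most members at a level between the other two groups. In 69 members the 3 groups did not overlap, with ABA lowest and mock highest, against 2.59% of all genes tested. The choice itself set every ABA library below every mock library in all members, as held in 20.8% of all genes. Of all genes, 4460 met that condition, and 555 of them had the full order. The shares of all genes given here and for both tests together are therefore not a like comparison. In 36 members iSB09 passed both tests, below mock and above ABA, against 0.681% of all genes; this count was 20 without ABA replicate 1, 20 without mock replicate 2 and 21 without iSB09 replicate 3. A further 25 members were below mock without being above ABA in the test, 26 were above ABA without being below mock, and 14 passed neither. The median mock level was 6.77 CPM in the 36, 3.60 CPM in the 25, 2.82 CPM in the 26 and 2.59 CPM in the 14, and the median iSB09 level was 2.15, 0.896, 1.8 and 1.33 CPM in the same order. Whether read number set the class was not tested.

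The position of iSB09 can be given as the share of the way from mock to ABA that its mean covered on a log2 scale with 0.05 CPM added; 0% is the mock level and 100% the ABA level. The share had a median of 46.2% over members, quartiles of 36.1% and 56.6%, and extremes of 4.75% in Solyc03g093390.4 and 104% in Solyc12g100250.3. The low extreme rests on 1 library: without iSB09 replicate 1 the share of Solyc03g093390.4 was 40.4%, near the median, and the lowest share was 11.8%, in Solyc02g083730.4. It was under 25% in 9 members and over 75% in 9. Read with 1 iSB09 library at a time, the median was 37.7%, 56.8% and 49.4% for replicates 1 to 3, so that replicates 1 and 2 gave medians near the lower and the upper quartile over members.

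**Figure D3:**
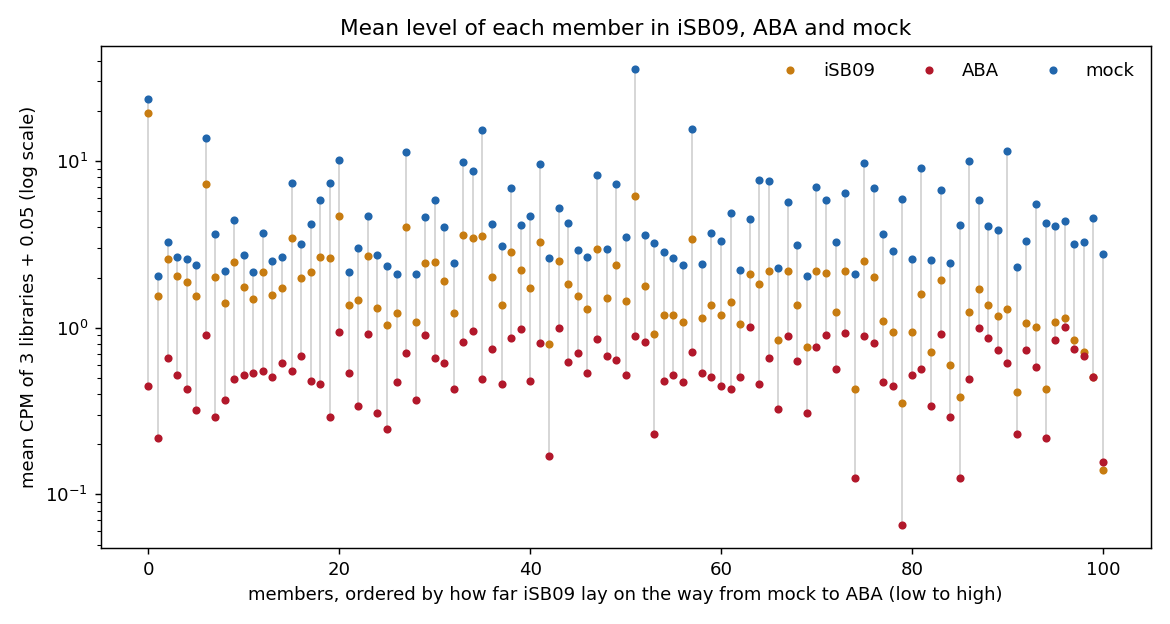
Mean CPM + 0.05 of each member, on a log scale, in iSB09, ABA and mock (n = 3 each), ordered from the smallest to the largest share of the way from mock to ABA covered in iSB09. iSB09 lies below mock in all 101 members and above ABA in 99.

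The members with the lowest and the highest shares are described without a test, since the iSB09 libraries chose them. At the low end, after Solyc03g093390.4, came 5 members. Solyc08g061060.3 had 2.68, 0.958 and 0.866 CPM in iSB09, 0.274, 0.136 and 0.0915 CPM in ABA and 2.28, 2.24 and 1.49 CPM in mock. iSB09 replicate 1 was again above every mock library, and the other iSB09 libraries were below every one. Its log2 fold change of iSB09 over mock was -0.42 ± 0.41, and -1.11 without iSB09 replicate 1; its share was 12.4%, and 33.7% without that library.

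Solyc11g045460.3 was more even, with 3.05, 2.42 and 2.19 CPM in iSB09, 0.684, 0.363 and 0.778 CPM in ABA and 4.24, 3.06 and 2.31 CPM in mock. iSB09 overlapped mock and lay above every ABA library, and the share of 14.0% was 9.73% to 20.3% with 1 iSB09 library left out. Solyc03g006890.3 had 1.86, 1.23 and 1.37 CPM in iSB09, 0.228, 0.408 and 0.183 CPM in ABA and 2.28, 2.47 and 2.22 CPM in mock. Its groups did not overlap, and its share of 21.7% was 17.7% to 28.3% with 1 iSB09 library left out.

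Solyc04g074330.3 had 2.91, 1.19 and 1.87 CPM in iSB09, 0.593, 0.590 and 0.229 CPM in ABA and 3.23, 2.28 and 2.31 CPM in mock. Solyc02g083730.4 had 1.41, 2.56 and 1.5 CPM in iSB09, 0.411, 0.272 and 0.457 CPM in ABA and 1.64, 3.70 and 2.22 CPM in mock. In both, iSB09 overlapped mock and lay above every ABA library. Their shares of 16.3% and 17.7% moved with the libraries too, to 32.0% for Solyc04g074330.3 without iSB09 replicate 1 and to 29.8% for Solyc02g083730.4 without iSB09 replicate 2.

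At the high end came 6 members. Solyc12g100250.3 had 0.182, 0 and 0.0911 CPM in iSB09, 0.182, 0.0454 and 0.0915 CPM in ABA and 2.19, 3.06 and 2.94 CPM in mock. Only 6 reads were left in the 3 iSB09 libraries and 7 in the ABA libraries, against 180 in mock. The log2 fold change was -4.82 ± 0.50 for iSB09 over mock, and -5.72 without iSB09 replicate 1. For iSB09 over ABA it was -0.24 ± 0.81, a wide error at so few reads.

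Its neighbour by ID, Solyc12g100240.1, had 0.728, 0.274 and 1.0 CPM in iSB09, 0.912, 0.408 and 0.549 CPM in ABA and 2.64, 3.42 and 3.57 CPM in mock. iSB09 and ABA overlapped, and iSB09 was below every mock library. Solyc01g073780.2 had 0.773, 0.274 and 0.319 CPM in iSB09, 0.547, 0.499 and 0.320 CPM in ABA and 4.19, 5.16 and 4.21 CPM in mock. It kept 30 reads each in iSB09 and in ABA, and the groups again overlapped with each other but not with mock.

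Solyc09g014720.3, Solyc02g030220.1 and Solyc05g014590.3 complete this end, at 0.790 ± 0.448, 1.09 ± 0.330 and 1.03 ± 0.189 CPM in iSB09, 0.700 ± 0.313, 0.957 ± 0.210 and 0.790 ± 0.330 CPM in ABA, and 3.12 ± 0.507, 4.29 ± 1.13 and 4.02 ± 1.14 CPM in mock (SD, n = 3 each). With 1 iSB09 library left out, the shares of these 6 members ran from 73.5%, in Solyc09g014720.3 without replicate 1, to 117%.

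The iSB09 libraries did not lower the members equally. Replicate 1 was the highest of its group in 63 of 101 members, 62.4% of them, while it was the highest in 37.1% of all tested genes. Replicate 2 was the lowest in 51.5% of members and in 53.5% of all tested genes. The median deviation of members from their group mean, on the log2(CPM + 0.05) scale, was 0.34, -0.25 and -0.07 in iSB09 replicates 1 to 3, against 0.04, -0.08 and 0.04 over all tested genes. Relative to the mock mean the median member stood at 46.1%, 32.0% and 34.1% in these libraries. Solyc03g093390.4 alone supplied 48.9 of the 267.6 CPM in replicate 1; without it the sums were 218.7, 145.6 and 161.3 CPM. Without iSB09 replicate 1, 67 members were below mock and 43 above ABA in the tests, with no share of all genes given for that fit.

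Among mock libraries, replicate 3 was the lowest in 58.4% of members, against 25% of all tested genes, with a median deviation of -0.16. Leaving it out gave 69 members below mock in iSB09. Among ABA libraries the median deviations were 0.03, -0.13 and 0.09. What made these libraries differ was not tested.

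Other genes that responded to ABA are set beside the members for comparison. There were 100 genes that met the same mock, ratio and separation conditions but kept 1 CPM or more in ABA. Their median levels were 8.32 CPM in iSB09, 2.84 CPM in ABA and 20.6 CPM in mock. Under ABA they fell less than members, with a median log2 fold change over mock of -2.36 against -2.96. Their median share was 46.9%, close to the 46.2% of members, and 73 fell in iSB09 against mock while 68 were above ABA. The deviations of the iSB09 libraries were alike too, with medians of 0.31, -0.27 and 0.01 in replicates 1 to 3. The share of members called, 60.4% below mock and 61.4% above ABA, was lower than the 73.0% and 68.0% of that set. That set had more reads per gene, and whether read number or size of fall bore on the calls was not tested.

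The mirror rule, with ABA and mock exchanged, found 135 genes raised by ABA. Their median share was 52.6%, with quartiles of 37.4% and 64.9%, and 79 of them were above mock in iSB09 while 112 were below ABA. In these the iSB09 libraries deviated by medians of -0.10, -0.08 and 0.10. Apart from members, 1789 genes with at least 2 CPM in mock fell under ABA in the test. The 100 genes above that met the same ratio condition were not left out of this set. The median share of the 1789 was 52.6%, and their median log2 fold change was -0.73 for ABA over mock, against -2.96 in members. These comparisons were not tested, since all share the mock and ABA libraries that defined the sets.

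Tomato IDs of this kind carry the chromosome in their first digits and a number that rises along it, mostly in steps of 10, here counted as 1 gene number each. Members lay on all 12 chromosomes, from 3 on chromosomes 7 and 10 to 15 on chromosome 3. Per gene with at least 2 CPM in mock the share ran from 0.220% on chromosome 7 to 0.987% on chromosome 12. Within 10 gene numbers of another member lay 26 members, in 12 runs, of which 10 were pairs and 2 had 3 members. Such neighbours can be near-identical copies whose reads the authors' counting may have divided, so their values are not sure to be independent.

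The steepest fall of any member was in 1 such pair on chromosome 6. Solyc06g072400.3 had 0.409, 0.183 and 0.319 CPM in iSB09, 0.0456, 0 and 0 CPM in ABA and 8.02, 3.74 and 5.93 CPM in mock. A single read was left in ABA against 389 in mock, a ratio of 388 with an exact 95% counting interval of 69.3 to 15371. Solyc06g072385.1, the next ID in the table, had 0.182, 0.274 and 0.547 CPM in iSB09, 0.137, 0.0454 and 0.0457 CPM in ABA and 5.19, 3.24 and 3.80 CPM in mock. The pair held 5.15% and 8.19% of its mock level in iSB09, far under the median of 37.8% over members. Since the pair is named for its fall in the same mock and ABA libraries, its tests share that choice. Both fell in iSB09 against mock, with log2 fold changes of -4.25 ± 0.39 (adjusted p = 0.00011) and -3.59 ± 0.36 (adjusted p = 0.00023). Against ABA, Solyc06g072400.3 was higher in iSB09 (3.86 ± 0.93, adjusted p = 0.034), and Solyc06g072385.1 had 2.03 ± 0.63 (adjusted p = 0.10). The first of these was 5.75 without ABA replicate 1, and the call did not hold without iSB09 replicate 1 or 3 (adjusted p = 0.10 and 0.081) or without ABA replicate 1, 2 or 3 (0.067, 0.13 and 0.11).

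The pair most alike in share was on chromosome 1. It is picked by shares that use the same libraries as its tests, so these tests are not independent of the choice. Solyc01g104800.2 had 1.41 CPM in each iSB09 library, 0.411, 0.136 and 0.320 CPM in ABA and 4.46, 2.83 and 1.63 CPM in mock. Solyc01g104810.2 had 1.14, 1.73 and 0.911 CPM in iSB09, 0.182, 0.272 and 0.320 CPM in ABA and 3.87, 2.83 and 1.31 CPM in mock. In both, mock replicate 3 was by far the lowest of its group and, in the second gene, below an iSB09 library. iSB09 was above ABA by a log2 fold change of 2.24 in each (SE 0.47 and 0.53, adjusted p = 0.018 and 0.032) and did not pass against mock (adjusted p = 0.13 and 0.17), but did without mock replicate 3 (0.024 and 0.032). The call against ABA ended for Solyc01g104800.2 without ABA replicate 2 or 3 (0.083 and 0.056). For Solyc01g104810.2 it ended in 7 of 15 alternative fits (0.054 to 0.13), namely with limma voom, when any ABA library was left out, and when iSB09 replicate 1, iSB09 replicate 2 or mock replicate 2 was.

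Other runs were less alike within themselves. On chromosome 8, Solyc08g079920.2, Solyc08g079930.2 and Solyc08g079970.2 had mean levels of 0.364, 1.24 and 1.78 CPM in iSB09, 0.182, 0.562 and 0.410 CPM in ABA and 2.26, 11.5 and 7.63 CPM in mock, and shares of 74.8%, 74.5% and 51.0%. On chromosome 12, Solyc12g100230.1 had a share of 49.0%, beside 95.9% and 104% in Solyc12g100240.1 and Solyc12g100250.3. On chromosome 1, Solyc01g073780.2 and Solyc01g073800.2 had shares of 100% and 75.6%, unlike Solyc01g104800.2 and Solyc01g104810.2 with 33.2% and 33.5%. On chromosome 11, Solyc11g045460.3 and Solyc11g045530.3 had 14.0% and 50.5%.

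On chromosome 6 a further pair, Solyc06g069640.3 and Solyc06g069650.4, had shares of 37.3% and 43.1%, and Solyc06g060500.1 and Solyc06g060530.1 had 36.6% and 23.8%. The pairs on chromosome 3 were Solyc03g121200.4 and Solyc03g121230.3, at 51.6% and 77%, and Solyc03g082470.4 and Solyc03g082520.1, at 48.3% and 75.1%. Solyc02g076830.1 and Solyc02g076880.4 had 38.8% and 42.8%, and Solyc08g005500.4 and Solyc08g005550.4 had 52.1% and 43.7%. Within a run the highest and the lowest share thus differed by as little as 0.3 and as much as 55 percentage points.

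Apart from members that lay near other members, most tested genes around members were not called lower under ABA. Of 1161 tested genes that were no members but lay within 10 gene numbers of one, 135 fell under ABA in the test, 11.6%, against 9.90% of all genes. Around the 12 runs the figure was 24 of 191, 12.6%. It was highest around Solyc01g073780.2 and Solyc01g073800.2, where 5 of 15 fell, and 0 around Solyc03g082470.4, Solyc06g069640.3 and Solyc11g045460.3.

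**Figure D4:**
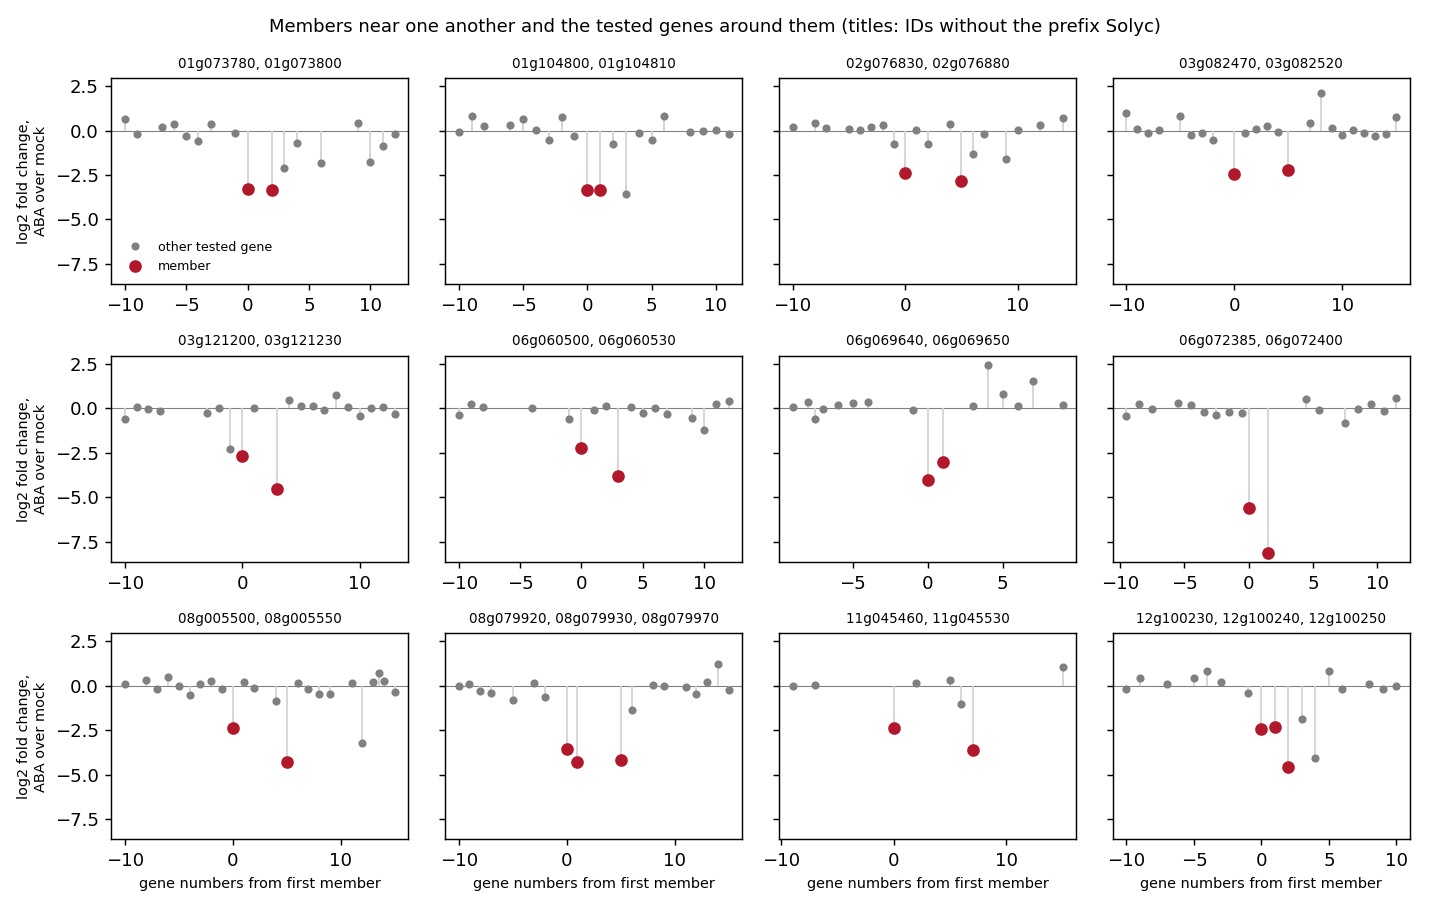
Log2 fold change of ABA over mock for members in the 12 runs (red) and for the other tested genes within 10 gene numbers (grey), by gene number from the first member of the run. Members reach -8.12 in Solyc06g072400.3, and most grey genes lie near 0; the lowest is at -4.07, in the run of Solyc12g100230.1.

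The borders of the set cut through a continuum. At the mock threshold, Solyc09g064910.1 and Solyc08g061060.3 were inside with mock means of 2.002 and 2.003 CPM, and Solyc07g016210.1 and Solyc02g090450.3 outside with 1.987 and 1.986 CPM. At the ABA threshold, Solyc02g030220.1 and Solyc01g111900.4 were inside with ABA means of 0.9573 and 0.9567 CPM, and Solyc02g069600.3 and Solyc01g102895.1 outside with 1.002 and 1.003 CPM. At the ratio threshold, Solyc09g011620.2 and Solyc03g120330.1 were inside with 4.053 each, and Solyc03g097410.1 and Solyc11g006630.1 outside with 3.885 and 3.827. The numbers of genes that met every other condition but missed one were 126 for the mock level, 100 for the ABA level and 49 for the ratio.

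The fall was also read in libraries left out of the choice. With replicate 1 of ABA and of mock set aside, the rule chose 116 genes, and in replicate 1 itself 83 of them had a ratio of at least 4 and 108 had mock above ABA. With replicate 2 set aside it chose 93, of which 79 had a ratio of at least 4 in replicate 2 and 93 had mock above ABA. With replicate 3 set aside it chose 107, of which 76 and 107 did so in replicate 3. The median ratio in the library left out was 6.27, 8.37 and 6.09, and the lowest ratio was 0.0199, 1.01 and 1.57. In replicate 1 a chosen gene was thus far higher in ABA than in mock. The share of all genes with such ratios in a single replicate is not given here. Of the 101 members, 90, 84 and 96 were among the genes chosen in these 3 ways.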

How the data were processed

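The authors deposited 1 table of raw read counts per gene for whole-seedling RNA. Among the tools listed in the submitters' processing notes are STAR, cutadapt, FastQC and DESeq2, with no version. The genome build, the annotation and how reads were counted were not given in the sources used here. By their names 9 columns of the table match samples, and 3 others were not used. Fits planned over all groups were therefore made over these 9 libraries (21863058 to 22098966 counts), and no iCB comparison was made.

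CPM values use column totals. The test was the quasi-likelihood F test of edgeR 4.0.16 under R 4.3.3 (glmQLFit and glmQLFTest, two-sided), with TMM normalisation and 1 coefficient per treatment, on the 21424 genes that filterByExpr kept; the threshold is an adjusted p of 0.05. The SE of a log2 fold change comes from the F statistic. The fit was tested on simulated data. DESeq2 1.42.0, limma 3.58.1 (voom), library totals, other filters and omitted libraries were alternatives. Intervals cover counting error only. Pairs of libraries within groups differed by 7.465 to 28.48 in chi-square per degree of freedom, so none was counted as a duplicate.

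Named members are the 8 with the highest mock means, the 6 lowest and 6 highest iSB09 shares, those beside a threshold and those within 10 gene numbers of another. The rule also asked for members with 0 reads in all ABA libraries, of which there were 0. Members and lists were chosen with earlier results of these data known.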

Additional observations from a re-analysis of the deposited data

How the results depend on the processing

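With 0.5 CPM in place of 0.05 CPM added to the ratio, the rule found 54 members, all among the 101. It found 98 with TMM-scaled library sizes, 106 when groups could overlap, 95 to 109 with 1 library left out, and 93 to 116 with 1 replicate number left out of ABA and mock together, an alternative added after seeing the data. With 1 library left out, the members called numbered 39 to 69 for iSB09 below mock, 36 to 65 for iSB09 above ABA and 20 to 43 for both together (the last also added after seeing the data), and the median share of the way was 42.8% to 52.2%. The counts by the other tools, filters and scalings lay within 1.5 times those reported. In all 16 fits, 36 members were called below mock and 31 above ABA. Shares of all genes called are given only for the reported edgeR fit, DESeq2 and limma voom. Counts of members in the other fits, here and above, therefore have no such share beside them.

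Of the members named for their level or share, Solyc03g093390.4 changed sign for iSB09 over mock, at -2.33 to 0.24 on the log2 scale with 1 library left out. For iSB09 over ABA, members with differences near 0 changed sign: Solyc01g073780.2 (-0.62 to 0.20), Solyc02g030220.1 (-0.14 to 0.35), Solyc09g014720.3 (-0.15 to 0.59), Solyc12g100240.1 (-0.32 to 0.41; -0.02 with limma voom) and Solyc12g100250.3 (-1.14 to 0.33). The cause was not tested. Not every pair of same-numbered libraries deviated together: the correlation was 0.341 for replicate 3 of iSB09 and mock and -0.185 to 0.046 for the other pairs, so the numbers are not taken to pair the samples. With a replicate block 62 members were below mock, 56 above ABA and 34 both, and 101 below mock in ABA; the call of Solyc09g098620.2 against mock ended (adjusted p = 0.086). Depth limits the ABA level most, with 1 to 63 reads per member over 3 libraries.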
